A study of Mus musculus with 10 samples.

Results

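Chromatin accessibility after 3 days of forskolin was compared with accessibility after 3 days of rosiglitazone over every peak of the deposited table. The comparison took 4 of the 10 libraries, S7 and S8 with forskolin and S9 and S10 with rosiglitazone, and all 122984 peaks, of which 118962 passed a filter on low counts and were tested. MAP cells, an immortalized line of mouse adipocyte progenitors, had been differentiated into adipocytes and were assayed by ATAC-seq, which reads out open chromatin as the places where a transposase can insert. Treatment was given to the differentiated adipocytes from day 7 to 8, for 3 days in both groups, and both agents served to induce browning according to the labels. All groups, the vehicle control included, had been differentiated with insulin, isobutylmethylxanthine and dexamethasone plus 1 µM rosiglitazone for 2 days, and then with insulin and rosiglitazone for another 2 days. Every cell compared here had therefore met rosiglitazone before the treatment, and isobutylmethylxanthine, which blocks phosphodiesterases and so raises cAMP. The doses of forskolin and of the later rosiglitazone, and whether the line is 1 clone, are not given in the sources used here. Each library was made from 10000 nuclei, and nothing in the labels says that both libraries of 1 treatment are separate cultures, so the p-values measure only the spread between these libraries, which may be technical.

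Forskolin activates adenylyl cyclase. The cAMP it raises activates protein kinase A, which phosphorylates CREB and, in fat cells, starts lipolysis and the thermogenic programme that cold and adrenergic signals switch on. Rosiglitazone binds PPARγ, the nuclear receptor that pairs with RXR on DNA and drives the genes of fatty acid uptake, lipid droplets and fatty acid oxidation in adipocytes. Either agent can brown white adipocytes in culture.

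Counts in peaks totalled 16287650 and 13031199 in the forskolin libraries and 14219842 and 16296924 in the rosiglitazone libraries. Pearson's r of log2 CPM (counts scaled to library size and composition) across peaks was 0.952 between S7 and S8 and 0.958 between S9 and S10, and 0.883 to 0.893 between the groups. In raw counts S7 and S8 differed more than S9 and S10, with a chi-square per degree of freedom of 3.37 against 2.23. The libraries differed in the share of counts in gene-end peaks, which lie at most 1 kb from where a protein-coding gene is annotated to start or stop: 41.4% in S7, 45.0% in S8, 44.1% in S9 and 45.7% in S10. The adipocyte markers (Adipoq, Plin1, Cidec, Fabp4, Lipe, Pparg, Cebpa and Lep) all had peaks, and their summed level was 827 and 868 CPM with forskolin and 1090 and 1110 CPM with rosiglitazone. Fabp4 held much of that difference, at 140 and 149 against 325 and 321 CPM. Of the 8, 3 were called higher with rosiglitazone and 0 with forskolin. Pparg lay the other way without a call, at 203 and 215 against 193 and 196 CPM. The 8 progenitor markers also all had peaks, with summed levels of 312, 307, 307 and 293 CPM in S7 to S10. The macrophage, endothelial and muscle markers summed to 65.2 and 63.6, 134 and 130, and 30.0 and 30.9 CPM with forskolin, and to 78.3 and 79.4, 113 and 120, and 32.6 and 35.7 CPM with rosiglitazone; Adgre1 and 2 of the 4 muscle markers had no peak. In bulk nuclei, fewer cells of a type and less open chromatin per cell cannot be told apart.

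Promoter sequences show the regions that differed between the agents. Where a peak overlapped a promoter window (250 bases before to 50 after a start site, RefSeq, GRCm38.p6), 5 examples were chosen after their values were seen, and the 250 bases before the start site are printed 5′ to 3′ on the gene's strand. Il6, which encodes the cytokine interleukin 6, and Ptpn22, a phosphatase of immune signalling, had peaks there that were higher with forskolin. Fgf21, a metabolic hormone, Plin1, the coat protein of lipid droplets, and Ech1, an enzyme of fatty acid oxidation, had peaks that were higher with rosiglitazone. Capitals mark AP-1 letters (TGANTCA) in Il6, glucocorticoid element letters (ACANNNTGT) in Ptpn22 and the core letters of a DR1 element (GGNCANAGG on either strand) in Ech1; the windows of Fgf21 and Plin1 held none of the searched letters.
Il6 (chr5:30012864-30013113, plus strand): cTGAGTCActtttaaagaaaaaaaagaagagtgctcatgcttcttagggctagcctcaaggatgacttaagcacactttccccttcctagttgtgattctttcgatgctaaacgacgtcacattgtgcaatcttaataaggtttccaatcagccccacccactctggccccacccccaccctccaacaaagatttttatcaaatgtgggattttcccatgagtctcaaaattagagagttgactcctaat
Ptpn22 (chr3:103860027-103860276, plus strand): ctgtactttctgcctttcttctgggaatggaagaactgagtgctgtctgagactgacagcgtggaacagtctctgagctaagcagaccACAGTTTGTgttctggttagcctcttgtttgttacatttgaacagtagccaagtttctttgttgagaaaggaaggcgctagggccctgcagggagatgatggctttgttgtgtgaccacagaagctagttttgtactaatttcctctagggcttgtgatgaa
Fgf21 (chr7:45615491-45615740, minus strand): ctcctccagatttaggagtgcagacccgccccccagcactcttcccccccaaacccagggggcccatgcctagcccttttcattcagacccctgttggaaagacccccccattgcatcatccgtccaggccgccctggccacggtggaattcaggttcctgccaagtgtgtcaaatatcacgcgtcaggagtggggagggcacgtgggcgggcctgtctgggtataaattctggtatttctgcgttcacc
Plin1 (chr7:79732777-79733026, minus strand): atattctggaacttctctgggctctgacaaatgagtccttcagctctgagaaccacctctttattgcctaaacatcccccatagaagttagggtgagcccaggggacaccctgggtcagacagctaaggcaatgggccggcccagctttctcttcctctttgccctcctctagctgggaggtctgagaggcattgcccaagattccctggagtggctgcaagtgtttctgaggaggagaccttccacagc
Ech1 (chr7:28825088-28825337, plus strand): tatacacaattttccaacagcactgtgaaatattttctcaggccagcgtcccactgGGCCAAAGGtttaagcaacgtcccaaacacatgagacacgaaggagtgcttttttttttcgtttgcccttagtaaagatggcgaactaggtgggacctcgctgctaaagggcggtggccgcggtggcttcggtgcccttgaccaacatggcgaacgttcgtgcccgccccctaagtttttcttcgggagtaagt

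The peak at the Il6 start site measured 32.5 and 38.0 CPM with forskolin and 21.8 and 21.0 CPM with rosiglitazone. At Ptpn22 the values were 17.6 and 15.0 against 4.13 and 5.99 CPM. At Fgf21 they were 1.41 and 2.14 with forskolin against 6.33 and 5.81 CPM with rosiglitazone. In these 3 peaks the libraries of the agents did not overlap, and neither did they at Plin1 (7.49 and 9.34 against 15.5 and 14.7 CPM) and Ech1 (19.8 and 19.1 against 27.7 and 28.2 CPM).

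Over the whole table, 25872 of 118962 tested peaks (21.7%) differed between the agents at a Benjamini-Hochberg adjusted p below 0.05 in edgeR's quasi-likelihood test. More peaks were higher with forskolin (15359, 12.9% of those tested) than with rosiglitazone (10513, 8.84%), so 59.4% of the calls were on the forskolin side. The differences were also somewhat larger on that side: 10166 of the peaks higher with forskolin (66.2%) and 5518 of those higher with rosiglitazone (52.5%) differed at least 2-fold, with median log2 fold changes of 1.25 and −1.04. The 2 libraries of 1 agent lay beyond both of the other in 99.4% and 99.9% of these calls, against 58.4% of all tested peaks. The number of calls fell to 17152 without S7, 16847 without S9, 16212 without S10 and 16549 with DESeq2, and the forskolin side held the majority in each of these.

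**Figure D1:**
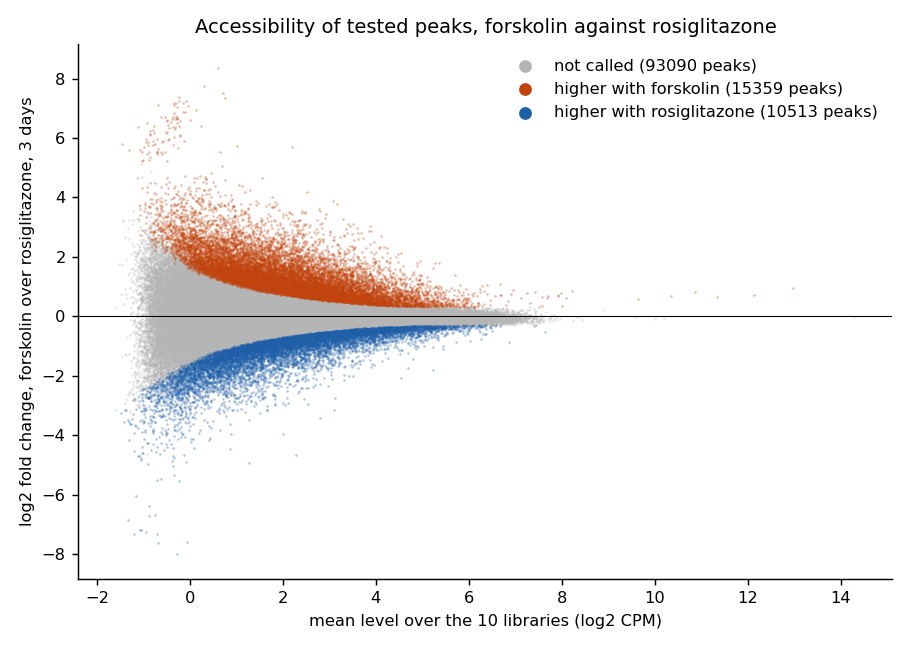
Log2 fold change of forskolin over rosiglitazone at 3 days (vertical axis) against the mean level over the 10 libraries in log2 CPM (horizontal axis) for 118962 tested peaks. The 15359 peaks higher with forskolin lie above 0 and the 10513 higher with rosiglitazone below; the detached points above 5 at low levels are mostly peaks without a count in either rosiglitazone library, whose fitted values are no measure of size.

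Gene-end peaks were fewer among the called than the uncalled peaks, a difference that for the rosiglitazone side turned without S8. Gene-end peaks made up 5.15% of the peaks higher with forskolin (95% Wilson interval 4.81 to 5.51) and 9.72% of those higher with rosiglitazone (9.17 to 10.3), against 15.3% of the uncalled peaks. Peaks at promoter windows made up 1.63%, 5.75% and 9.76% of the same sets. Peaks inside gene bodies took similar shares of the sets, 45.4%, 47.2% and 44.7%. The order of the agents in the gene-end share turned without S7, the library with the lowest gene-end share of counts, to 10.9% for forskolin against 8.56% for rosiglitazone, and without S8 the shares were 4.35% and 19.9%, the second above the 15.3% of the uncalled peaks and the 13.5% of all tested peaks. What the libraries' different gene-end shares contributed was not tested. Called peaks were wider than uncalled ones, with median widths of 434 bp, 462 bp and 345 bp in the 3 sets.

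Differing peaks also came in stretches of 1 direction. Of 6144 pairs of neighbouring called peaks at most 10 kb apart, 72.4% (71.3 to 73.5) shared their direction. The share was 60.6% for 9851 pairs with gaps of 10 to 50 kb and 55.8% for 7386 pairs with gaps of 50 to 200 kb, while the 2 directions in these proportions alone would give 51.8%. Of the 8733 genes with at least 1 called assigned peak, among 17021 with a tested peak, 3711 had only peaks higher with forskolin, 2490 only peaks higher with rosiglitazone and 2532 had both. Every autosome and the X had peaks in both directions, higher with forskolin for 8.66% of tested peaks on the X and 10.5% to 14.6% on the autosomes.

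The levels of these 2 sets in libraries outside the comparison show where they stood before and earlier. The peaks higher with forskolin had a median level of 2.52 and 2.39 CPM in the vehicle libraries S1 and S2, 4.77 and 4.35 CPM after 3 days of forskolin, and 1.86 and 1.85 CPM with rosiglitazone. The peaks higher with rosiglitazone stood at 4.24 and 4.29 CPM in vehicle, 2.89 and 2.77 CPM with forskolin and 6.05 and 5.87 CPM with rosiglitazone. In both sets the vehicle median thus lay between the agents: the median log2 difference from vehicle was 0.77 with forskolin and −0.45 with rosiglitazone for the first set, and −0.57 and 0.42 for the second. The 2 differences of each set use the same vehicle libraries and the libraries that chose the peaks, so they are given as a description.

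The same sets were followed at the earlier forskolin times, whose comparison with vehicle uses the levels of none of the 4 libraries. The estimate of the spread, the scaling and the filter were shared, each taken over all 10 libraries. Called peaks also had higher levels than all tested peaks, with median log2 CPM of 1.98 (higher with forskolin) and 1.99 (higher with rosiglitazone) against 1.51. What this added to the shares below was not tested. Of the peaks higher with forskolin at 3 days, 57.3% rose after 4 hours and 53.1% (52.3 to 53.9) after 1 day, while 3.70% and 1.74% fell. Among all tested peaks, 18.5% rose and 12.8% fell after 4 hours, and 12.9% rose and 9.79% fell after 1 day. Of the peaks higher with rosiglitazone, 34.7% fell after 4 hours and 27.4% (26.6 to 28.3) after 1 day, while 4.22% and 1.30% rose. The 1-day share of the first set ran from 47.3% with trended offsets to 62.3% with library size alone, and that of the second from 18.2% with library size alone to 37.9% without S8.

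**Figure D2:**
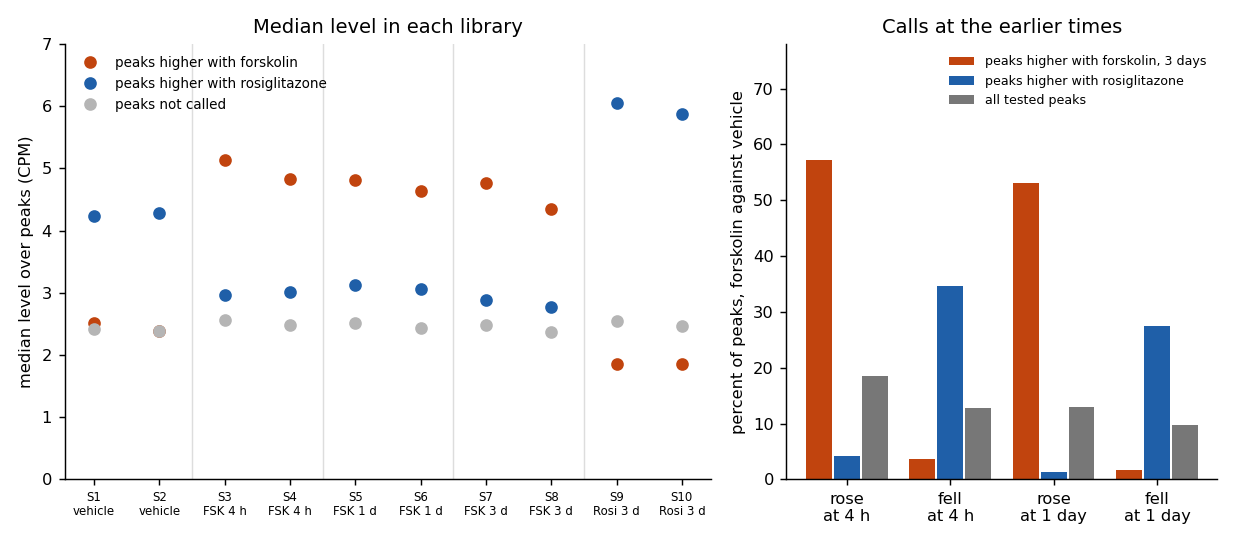
Left, the median level in CPM of 3 sets of peaks in each of the 10 libraries (horizontal axis, with treatment); right, the percentage of peaks that rose or fell with 4 hours or 1 day of forskolin against vehicle. The peaks higher with forskolin at 3 days stand at 4.77 and 4.35 CPM in S7 and S8 and at 1.86 and 1.85 CPM in S9 and S10, and 53.1% of them rose after 1 day against 12.9% of all tested peaks.

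Single peaks differed by far more than the median. Among called peaks of at least the median level, the largest difference was at a peak 23023 bp from the nearest end of Ino80c, a subunit gene of a chromatin remodeller (chromosome 18, 24081239 to 24081738), at 7.49 and 6.73 CPM with forskolin against 0.138 and 0.124 CPM with rosiglitazone (log2 fold change 5.69, SE 0.448). The rosiglitazone level rested on 2 counts in each library, against 127 and 85 with forskolin, and the vehicle libraries held 3 and 8. A peak in the body of Slc25a15, which encodes a mitochondrial ornithine carrier (chromosome 8, 22390843 to 22391462), stood at 15.1 and 15.4 CPM against 0.688 and 1.48 CPM. A peak 25228 bp from Rasl11a, a small GTPase gene (chromosome 5, 146872954 to 146873707), stood at 14.9 and 10.9 CPM against 0.757 and 0.988 CPM. Other peaks of this kind were assigned to Ccdc91, Polm, Rhox8, Txndc5 and Timd2, with log2 fold changes of 3.77 to 4.64. In all 8 of these peaks forskolin had also raised the signal after 1 day against vehicle (log2 fold changes 1.5 to 4.00). The level that chose the peaks was the mean of all 10 libraries, those of 1 day included. It favoured peaks high at 1 day, so this rise is a description and no separate support. At Timd2 the 2 forskolin libraries differed more than elsewhere, with 128 counts in S7 and 39 in S8.

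On the other side of the same peaks, the largest difference was at a peak on chromosome 10 with no gene end within 50 kb (100155553 to 100156155), at 0.648 and 0.554 CPM with forskolin and 14.9 and 16.6 CPM with rosiglitazone (log2 fold change −4.68, SE 0.309). Vehicle stood between them, at 5.45 and 4.70 CPM. A like order was seen 12971 bp from Prokr1, a prokineticin receptor gene (chromosome 6, 87564982 to 87565615), with 1.95 and 1.74 CPM under forskolin, 7.16 and 10.1 CPM in vehicle and 20.9 and 18.7 CPM under rosiglitazone. A second unassigned peak on chromosome 10 and one on chromosome 15, and peaks at Lin7a, Ankrd44, Pkd1l1 and Adam12, were lower with forskolin by log2 fold changes of −2.99 to −3.96. All 8 had already fallen after 1 day of forskolin against vehicle (−0.92 to −2.07). The vehicle and 1-day libraries were part of the level that chose these peaks too, so this is likewise a description.

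When the counts of a gene's peaks were added up, accessibility differed at 2924 of 17028 tested genes (17.2%), almost evenly split: 1474 genes were higher with forskolin (8.66% of those tested) and 1450 with rosiglitazone (8.52%). The even split is not firm. Forskolin's share of the called genes was 50.4%, 60.7% with trended offsets, 60.5% without S7, 37.5% without S8 and 65.5% without S9, and only 1406 genes were called without S9 and 1452 without S10. A gene's accessibility is not its expression, and assignment to the nearest gene can be wrong for distant peaks.

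The PPAR target genes were the list with the most members on 1 side. Of 29 tested, 20 were higher with rosiglitazone and none with forskolin in edgeR (1 at an unadjusted p under 0.05, and none with DESeq2), with a median log2 fold change of −0.39 against −0.04 over all genes, of which 8.52% were higher with rosiglitazone. Peak by peak, 94 of their 265 peaks (35.5%) were higher with rosiglitazone and 9 (3.40%) with forskolin, against 8.84% and 12.9% of all peaks. The count of genes ran from 17 to 22 when any 1 of the 4 libraries was left out, and was 13 with gene-end peaks only. Of the 8 adipocyte markers, 3 (Fabp4, Plin1 and Cidec, which are also in this list) were higher with rosiglitazone, and the other 5 were not called; the part of adipocyte content in the list's counts was not tested. The list's median difference from vehicle was 0.29 with rosiglitazone and −0.07 with forskolin.

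Fatty acid uptake and transport gave the clearest of these. Fabp4, the fatty acid carrier of the adipocyte cytoplasm, measured 140 and 149 CPM with forskolin, 325 and 321 CPM with rosiglitazone, and 141 and 142 CPM in vehicle. The rosiglitazone libraries stood apart and forskolin lay at the vehicle level: the log2 fold change of forskolin over rosiglitazone was −1.16 (SE 0.0605, adjusted p = 3.81e-11, edgeR). Of its 10 peaks, 9 were called, and the strongest (chromosome 3, 10202195 to 10203293) lay just beyond an end of the gene, at 16 and 18.4 against 58.5 and 56.8 CPM. Cd36, the membrane transporter of long-chain fatty acids, stood at 50.8 and 58.2 CPM against 122 and 117 CPM (2.19-fold lower with forskolin), with 60.1 and 64.5 CPM in vehicle. Its 14 called peaks among 24 were all on the rosiglitazone side and spread from the gene's body to both flanks, and at one of 2 adjoining peaks outside it (chromosome 5, 17774858 to 17775201) the levels were 0.354 and 0.317 CPM against 5.92 and 3.52 CPM. The neighbouring gene Gnat3, a taste G protein subunit, had 4 of 10 peaks called in the same direction (28.4 and 29.8 against 65.4 and 63.9 CPM). Fabp3, the heart-type carrier, was lower with forskolin by a log2 fold change of −0.96, and Lpl, the lipase that frees fatty acids from lipoproteins, by −0.48.

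Several genes of lipid droplets were higher with rosiglitazone too, though not all. G0s2, an inhibitor of the lipase ATGL, measured 58.1 and 59.0 CPM with forskolin and 119 and 124 CPM with rosiglitazone, with 56.3 and 75.5 CPM in vehicle (log2 fold change −1.05, SE 0.105). The droplet coat genes Plin1 (−0.72), Plin4 (−0.50), Plin2 (−0.44) and Plin5 (−0.32) were all called, and so was Cidec, the droplet fusion protein gene (−0.50). Agpat2 (−0.62) and Gpd1 (−0.39), enzymes of triglyceride synthesis, and Angptl4 (−0.40), a secreted inhibitor of lipoprotein lipase, were called as well. The 9 tested members that were not called included Cidea (17.3, 18.5, 20.4 and 16.7 CPM in S7 to S10), Pck1, Aqp7 and Slc27a1.

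Some targets were open only weakly outside the rosiglitazone libraries. The single peak assigned to Cpt1b, the muscle-type gate of mitochondrial fatty acid import, stood at 1.24 and 0.633 CPM with forskolin, 0.504 and 0.660 CPM in vehicle and 6.19 and 6.36 CPM with rosiglitazone (log2 fold change −2.68, SE 0.369, adjusted p = 3.15e-05, edgeR). The 2 peaks of Fgf21 summed to 2.36 and 3.40 CPM with forskolin, 2.72 and 2.81 CPM in vehicle and 9.77 and 8.34 CPM with rosiglitazone. In both genes forskolin overlapped vehicle, and rosiglitazone lay above both.

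**Figure D3:**
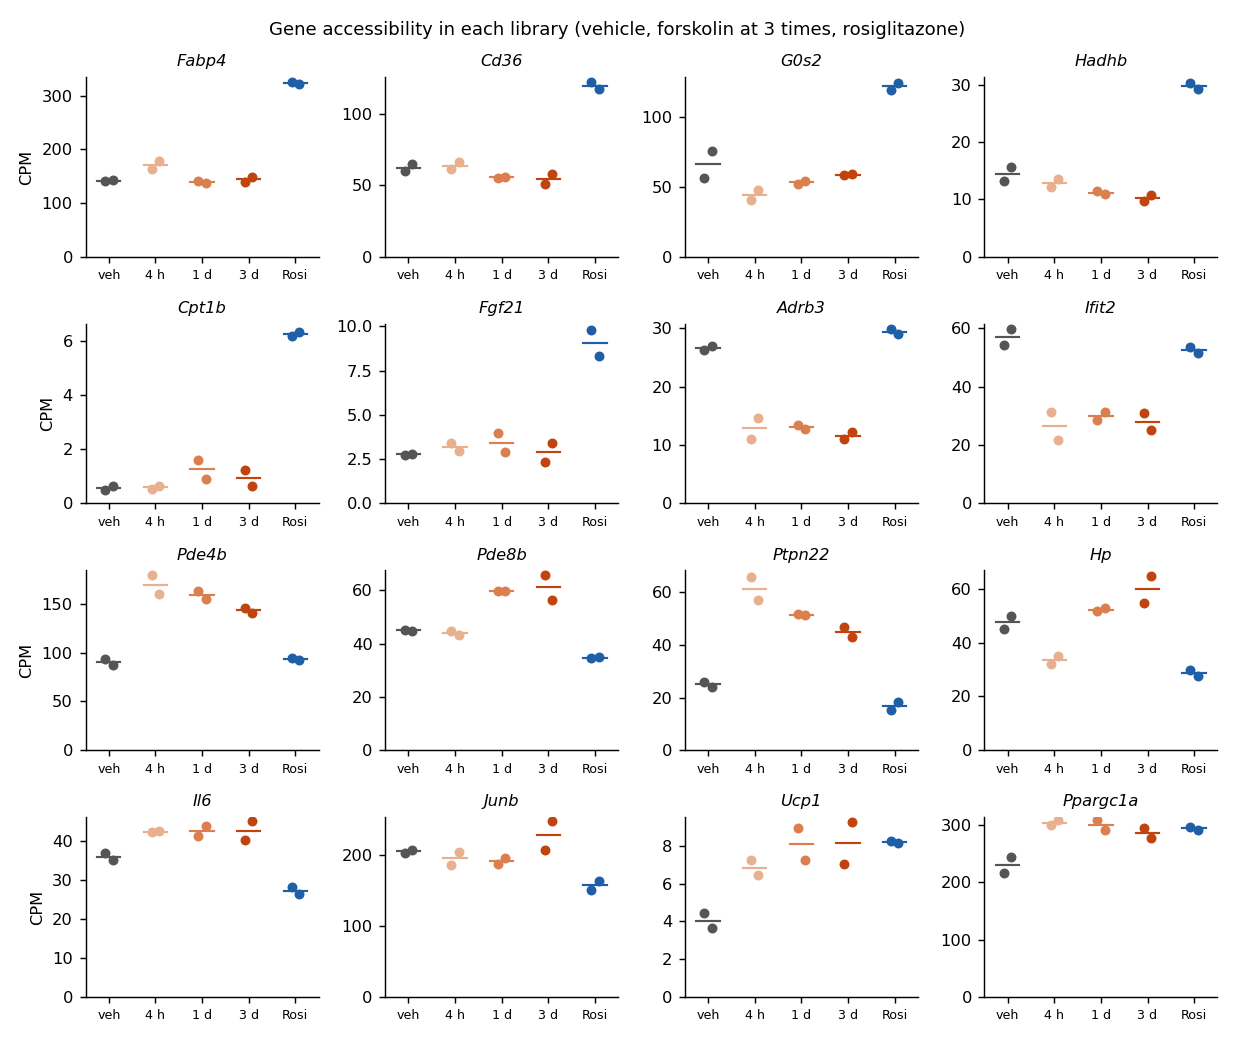
Gene accessibility in CPM (vertical axes, from 0) in each library for 16 genes; points are libraries, short lines the means of 2, and the horizontal axis gives vehicle, forskolin for 4 hours, 1 day and 3 days, and rosiglitazone for 3 days. Fabp4 stands at 325 and 321 CPM with rosiglitazone against 140 and 149 CPM with forskolin, and Ucp1 overlaps between the agents.

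Among the receptors and cofactors of the pathway, Ppara was lower with forskolin (247 and 251 against 322 and 346 CPM, log2 fold change −0.43), as were Rxrg (−0.31) and Ppargc1b (−0.26). These were the 3 of 14 tested that were higher with rosiglitazone, against 8.52% of all genes, and fewer were called without S10. Pparg itself gave 203 and 215 CPM with forskolin and 193 and 196 CPM with rosiglitazone (log2 fold change 0.10, adjusted p = 0.231, edgeR). Of its 24 peaks, 2 were higher with forskolin and 1 with rosiglitazone, against 12.9% and 8.84% of all peaks. The most different lay 2517 bp beyond an end of the gene (chromosome 6, 115492921 to 115494122), at 18.9 and 20.4 against 10.9 and 10.8 CPM. Vehicle gave 20 and 18.9 CPM, so here it was rosiglitazone that stood apart.

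Fatty acid oxidation had 5 of 16 genes higher with rosiglitazone, and none with forskolin in edgeR (1 at an unadjusted p under 0.05, and none with DESeq2), against 8.52% and 8.66% of all genes. Peak by peak the list lay near the background, with 6 of 64 peaks (9.38%) higher with rosiglitazone and 5 (7.81%) with forskolin, against 8.84% and 12.9% of all peaks. Besides Cpt1b, the called genes were Hadhb, the beta subunit of the trifunctional protein (9.67 and 10.8 against 30.3 and 29.3 CPM, log2 fold change −1.55), Ech1 (−0.50), Pex11a (−0.40) and Acot2 (−0.31). The count was 3 without S7, S9 or S10 and 8 without S8. In de novo lipogenesis 6 of 20 genes were higher with rosiglitazone and 1 with forskolin, against 8.52% and 8.66% of all genes, while the list's 227 peaks were split evenly, 30 (13.2%) and 28 (12.3%). The 6 were led by Insig1, a brake on sterol synthesis (316 and 325 against 460 and 470 CPM), and the desaturase gene Fads2 (96.0 and 100 against 142 and 139 CPM). Scd1, the stearoyl-CoA desaturase, was the exception, with 302 and 297 CPM under forskolin and 234 and 227 CPM under rosiglitazone (log2 fold change 0.38) and 8 of 17 peaks called. The 6 became 2 without S9, 3 without S10 and 9 without S8.

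Genes of cAMP signalling differed in both directions. Among 11 phosphodiesterases, which break down cAMP and cGMP, 4 were higher with forskolin and 1, Pde4c, with rosiglitazone (log2 fold change −0.40), and 60 of their 285 peaks (21.1%) were higher with forskolin against 15 (5.26%) with rosiglitazone. Over all features the shares were 8.66% and 8.52% of genes and 12.9% and 8.84% of peaks. Pde4b measured 146 and 141 CPM with forskolin, 95.1 and 93.0 CPM with rosiglitazone and 93.2 and 87.8 CPM in vehicle (log2 fold change 0.61, SE 0.0727). The 2 agents did not overlap, and rosiglitazone lay at the vehicle level. Its strongest peak (chromosome 4, 102555500 to 102555887), in the body of the gene, stood at 8.37 and 8.15 CPM against 0.482 and 1.42 CPM. Pde8b had 65.9 and 56.3 CPM against 34.6 and 34.9 CPM, Pde8a 45.2 and 40.1 against 23.0 and 25.3 CPM, and Pde10a 310 and 313 against 256 and 279 CPM. Pde4d had 17 of its 89 peaks higher with forskolin and 8 with rosiglitazone, and as a gene was not called (356 and 363 against 330 and 333 CPM).

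Upstream, Adrb3, the β3-adrenergic receptor through which adipocytes sense noradrenaline, was lower with forskolin: 11 and 12.2 CPM against 29.8 and 29.0 CPM with rosiglitazone and 26.2 and 26.9 CPM in vehicle (log2 fold change −1.35, SE 0.136, adjusted p = 6.30e-07, edgeR). Here the forskolin libraries stood apart, and 4 of 8 peaks were called. Gnas, the stimulatory G protein subunit, was also lower (90.1 and 102 against 115 and 127 CPM), a call that was lost without S10 (adjusted p = 0.116), and Adcy5, an adenylyl cyclase gene, likewise (83.1 and 80.6 against 103 and 97.9 CPM). No other gene of this list of 19 tested was called, and the 3 stand against 8.52% of all genes. Fewer were called without S10. Of the list's 205 peaks, 23 (11.2%) were higher with rosiglitazone and 16 (7.8%) with forskolin, against 8.84% and 12.9% of all peaks. Among 14 CREB factors and coactivators edgeR and DESeq2 called none, with 2 genes on each side at an unadjusted p under 0.05; without S7 edgeR called 2 higher with forskolin and 1 with rosiglitazone, and without S8 1 and 2.

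Of 16 early genes of the cAMP response, 3 were higher with forskolin, against 8.66% of all genes, and all 3 encode AP-1 subunits: Fosl1 (60.2 and 59.3 against 43.1 and 38.4 CPM), Junb (208 and 249 against 151 and 164 CPM) and Fosl2 (256 and 284 against 192 and 205 CPM). For Junb and Fosl2 the vehicle libraries lay at or near the forskolin level, with 203 and 208 CPM and 243 and 265 CPM, and rosiglitazone lay below. All 4 peaks of Junb and 9 of 18 at Fosl2 were higher with forskolin, and none with rosiglitazone. Summed as genes, Nr4a1, Fos, Jun and Per1 had log2 fold changes from −0.10 to 0.06 and were not called. The peak at the Nr4a1 promoter window was nevertheless higher with forskolin (44.1 and 44.1 against 30.6 and 32.7 CPM). Of the list's 123 peaks, 30 (24.4%) were higher with forskolin and 5 (4.07%) with rosiglitazone, against 12.9% and 8.84% of all peaks. The count was 6 without S7.

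Among the letters searched in promoter windows, the AP-1 letters differed most between the 2 sets. TGANTCA, which reads alike on both strands, stood in 63 of 285 promoter windows whose peak was higher with forskolin (22.1%, 17.7 to 27.3), in 44 of 696 with a peak higher with rosiglitazone (6.32%, 4.74 to 8.38), in 4.95% of 11079 with an uncalled peak and in 6.99% of all 21263 windows. The share rested on the choice of windows: without S7 it was 7.65% of 850 windows against 6.96% of 359, without S8 31.0% of 142 against 4.05% of 1458. Among windows with peaks higher with rosiglitazone the DR1 core letters stood in 8.62%, against 10.2% with forskolin and 8.53% of all windows. CRE letters (TGACGTCA) stood in 2.81% and 2.01% of the 2 sets and C/EBP letters (TTGCNNCAA) in 1.75% and 1.87%, against 2.23% and 1.79% of all windows; glucocorticoid element letters stood in 7.37% and 6.32% against 5.97%. Both strands were searched, a gene can have several overlapping windows, and a match is not a bound site.

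Of 24 in the NF-κB and inflammation list, 7 were higher with forskolin (Nfkb1, Il6, Ccl2, Cxcl1, Cxcl5, Lcn2 and Hp) and 1, the adhesion gene Vcam1, with rosiglitazone; the count of 7 was 4 without S9 or S10. Over all genes 8.66% were higher with forskolin and 8.52% with rosiglitazone. Of the list's peaks 16.5% and 9.09% were called in these directions, close to the 12.9% and 8.84% of all peaks. Hp, which encodes haptoglobin, measured 54.6 and 65.0 CPM with forskolin, 29.9 and 27.5 CPM with rosiglitazone and 45.2 and 50 CPM in vehicle (log2 fold change 1.06, SE 0.104). Il6 had 40.2 and 45.2 against 28.3 and 26.3 CPM (0.64). Lcn2, the lipocalin of acute inflammation, had 1 peak, at 8.61 and 7.60 against 4.82 and 5.74 CPM, and vehicle lay below both agents at 2.42 and 2.31 CPM. Of 8 tested macrophage genes, Ptprc and Mrc1 were higher with rosiglitazone (12.9 and 11.2 against 17.5 and 18 CPM, and 13.3 and 13.8 against 20.2 and 19.2 CPM) and Cd14 with forskolin (15 and 16.9 against 11.3 and 11.4 CPM). Without S9 all 3 calls were lost, and without S8 or S10 Mrc1 alone was called. Their part in the inflammatory genes' result was not tested.

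Of 18 interferon response genes, 5 were higher with rosiglitazone, against 8.52% of all genes, and none with forskolin in edgeR (none at an unadjusted p under 0.05, and none with DESeq2). Ifit2, an interferon-induced antiviral gene, stood at 30.9 and 25.2 CPM with forskolin, 53.5 and 51.5 CPM with rosiglitazone and 54.2 and 59.7 CPM in vehicle. Ifit3 was similar, at 18.9 and 18 against 29.8 and 27.6 CPM with 29.3 and 28.9 CPM in vehicle. In both genes the forskolin libraries stood apart. Irf9, Ifih1 and Bst2 were the other members called, and the count was 3 without S7, S9 or S10.

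**Figure D4:**
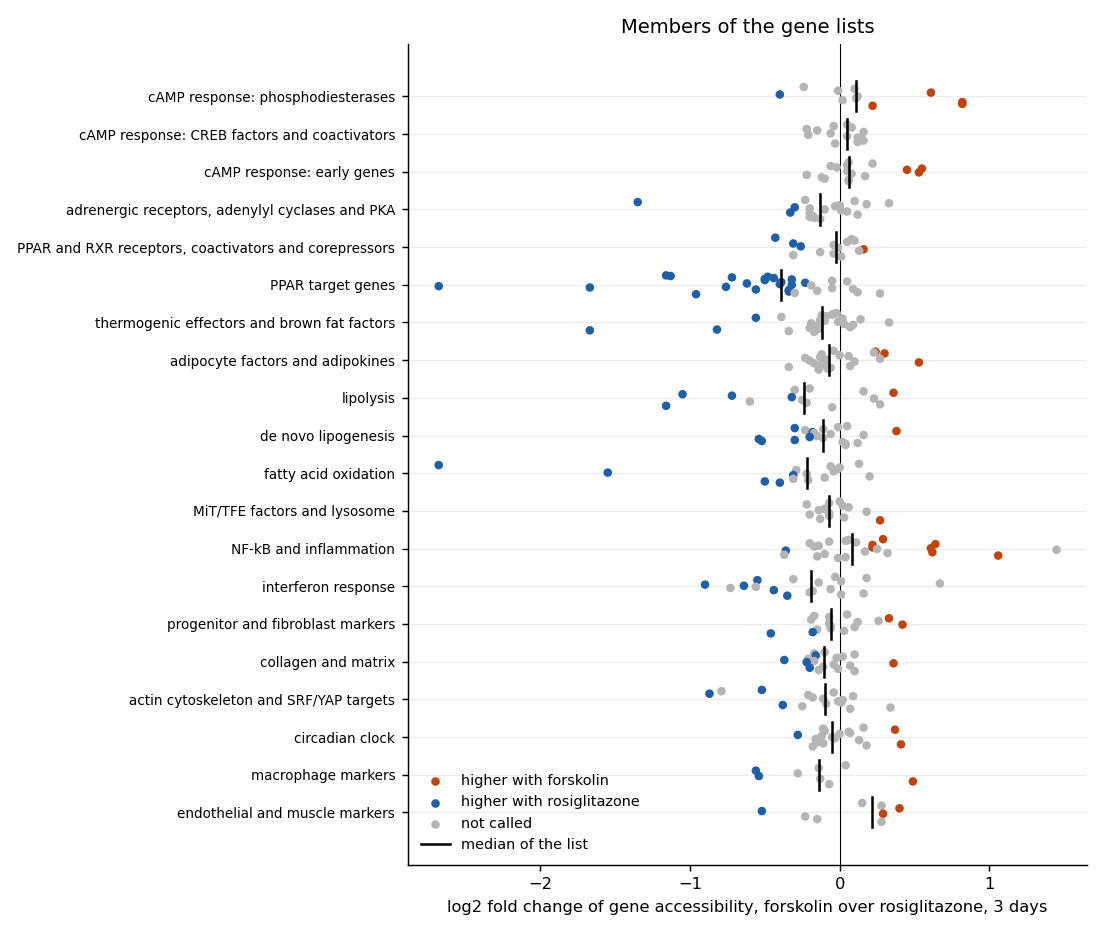
Log2 fold change of gene accessibility, forskolin over rosiglitazone at 3 days (horizontal axis), for the tested members of 20 gene lists (vertical axis); points are genes, coloured where the adjusted p is below 0.05, and black bars are list medians. The PPAR target list has its median at −0.39 with 20 genes called on the rosiglitazone side.

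Of 25 tested thermogenic genes, a list that both agents are used to induce, 3 were higher with rosiglitazone, a share near the 8.52% of all genes. Ucp1, the uncoupling protein of brown fat, measured 7.07 and 9.26 CPM with forskolin and 8.26 and 8.15 CPM with rosiglitazone, against 4.44 and 3.63 CPM in vehicle. The agents overlapped (log2 fold change −0.02, SE 0.193, adjusted p = 0.958, edgeR), and none of its 3 peaks was called by edgeR or DESeq2, nor any at an unadjusted p under 0.05. These levels rest on few counts, so moderate differences may go undetected. Ppargc1a, the coactivator of mitochondrial biogenesis, measured 295 and 277 against 297 and 292 CPM (−0.04, SE 0.0589), above the vehicle level of 216 and 244 CPM. Among its 52 peaks, 6 were higher with forskolin and 8 with rosiglitazone, against 12.9% and 8.84% of all peaks. The peak at 51867963 to 51868802 on chromosome 5 stood at 23.5 and 20.8 against 8.39 and 9.33 CPM, and the one at 51595543 to 51596194 at 20.5 and 17.1 against 33.2 and 35.1 CPM. Cidea and Dio2 had no called peak in edgeR or DESeq2, and none at an unadjusted p under 0.05. Of the list, Fgf21, Gatm, an enzyme of creatine synthesis (14.6 and 15.1 against 25.9 and 26.6 CPM), and Elovl3, a fatty acid elongase (30.8 and 34.3 against 44.1 and 51.8 CPM), were higher with rosiglitazone, and none was higher with forskolin (none at an unadjusted p under 0.05, and none with DESeq2). That count of 3 was 6 without S8.

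Mitf, a transcription factor gene of the MiT family, also had called peaks in both directions. The gene measured 138 and 128 against 133 and 134 CPM, with 4 of 31 peaks higher with forskolin and 3 with rosiglitazone. These counts were near the 12.9% and 8.84% of all tested peaks. One peak in its body (chromosome 6, 97921401 to 97921917) held 101 and 55 counts with forskolin, 5 and 8 with rosiglitazone and 0 and 2 in vehicle, a log2 fold change of 3.60 between the agents (SE 0.386).

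**Figure D5:**
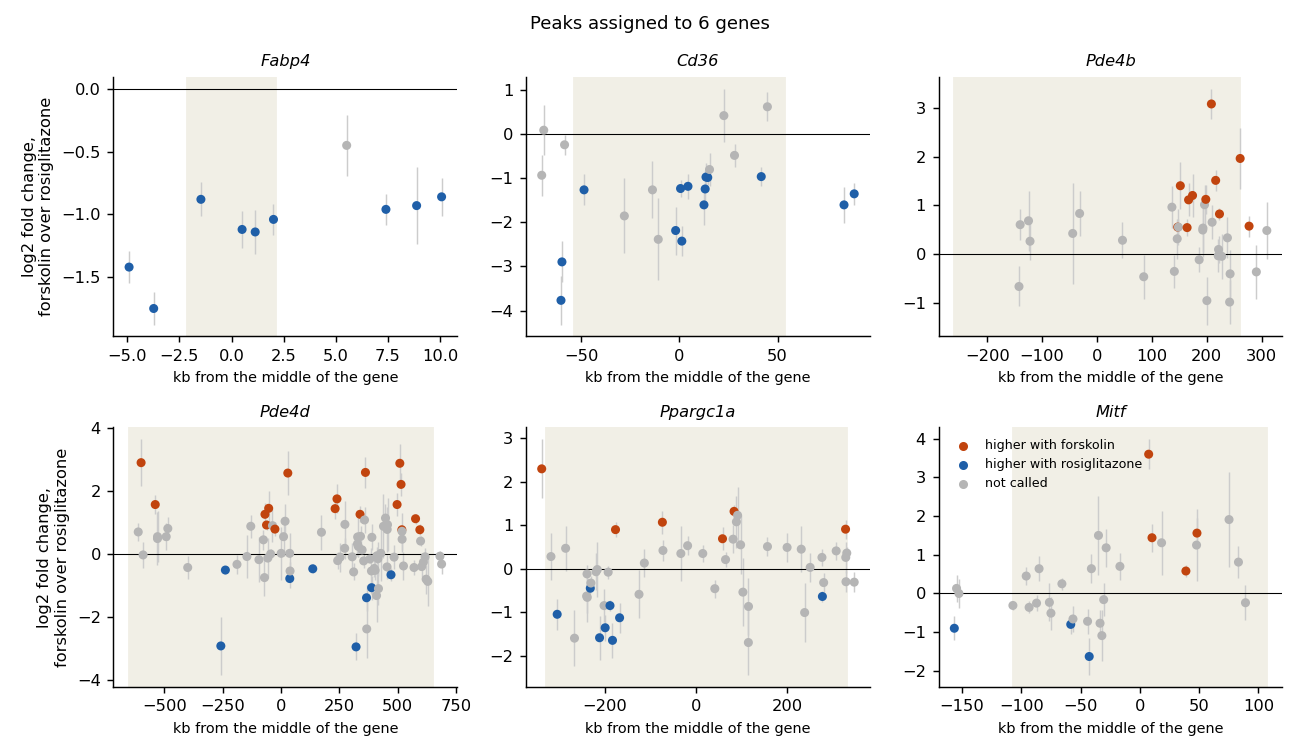
Log2 fold change of forskolin over rosiglitazone with its standard error (vertical axes) of each tested peak assigned to 6 genes, against its distance in kb from the middle of the gene (horizontal axes, along the chromosome); shading marks the annotated gene. Called peaks of Fabp4 and Cd36 are all below 0 and those of Pde4b all above, while Pde4d, Ppargc1a and Mitf have both.

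Among genes with at least 3 peaks and at least the median level, the largest differences in favour of forskolin were at Ptpn22 (46.7 and 43.0 against 15.1 and 18.2 CPM, with 26.1 and 23.9 CPM in vehicle) and Rtn4ip1, a mitochondrial oxidoreductase gene (48.1 and 46.9 against 15.7 and 20.2 CPM, with 32.3 and 32.8 CPM in vehicle). In both, vehicle lay between the agents. Ccr7, a chemokine receptor gene, Foxred2, Slc39a14, a zinc and iron transporter gene, Cyp8b1 and Osbp2 followed with log2 fold changes of 0.89 to 1.24. Those in favour of rosiglitazone included, beside Fabp4, Gnat3, Cd36, G0s2 and Ifit2, Txnip, the inhibitor of thioredoxin (113 and 125 against 207 and 226 CPM, with 189 and 204 CPM in vehicle), and Ear2, whose gene family has near-identical copies and may share reads.

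Counted by peaks, Babam2, which encodes a subunit of a deubiquitinating complex, had the most on the forskolin side, 20 of 59, followed by Fndc3b, Foxp1, Ksr1 and Pde4d with 17 each. Ksr1, a scaffold of the MAP kinase cascade, had 17 of only 28 and none on the other side (315 and 297 against 208 and 197 CPM). On the rosiglitazone side Arhgap26 had 15 of 69, and Cdk14, Tbc1d1 and Cd36 had 14 each. Long genes hold more peaks, so these counts favour them.

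Of 22 adipocyte factors and adipokines, 3 were higher with forskolin, against 8.66% of all genes. They were Cfd, the adipokine adipsin (31.1 and 35.3 against 23.0 and 22.8 CPM, with 40.8 and 39.3 CPM in vehicle), Klf4 (0.30) and Cebpb (0.24). None was higher with rosiglitazone in edgeR (6 at an unadjusted p under 0.05, and none with DESeq2), against 8.52% of all genes. The counts changed without S8 or S9. Adipoq (69.0 and 63.5 against 74.6 and 66.8 CPM) and Lep (70.5 and 70.4 against 83.9 and 78.3 CPM) were not called. In the lipolysis list of 14 genes 1, Abhd5, the activator of ATGL, was higher with forskolin (162 and 175 against 129 and 133 CPM). With rosiglitazone 4 genes of this list, G0s2, Plin1, Plin5 and Fabp4, were higher, and more were without S8. Over all genes 8.66% were higher with forskolin and 8.52% with rosiglitazone. Summed as genes, the lipase genes Lipe and Pnpla2 gave log2 fold changes of −0.20 and −0.30 and were not called. The peak at the Lipe promoter window was higher with rosiglitazone (37.2 and 37.9 with forskolin against 48.6 and 51.0 CPM). Of 16 contractile and SRF or YAP target genes, 3 were higher with rosiglitazone, against 8.52% of all genes. They were Acta2 (29.9 and 33.6 against 43.5 and 47.2 CPM), Myl9 and Ccn1, and more were called without S8. Collagens and matrix genes had 4 of 18 higher with rosiglitazone and 1 with forskolin, against 8.52% and 8.66% of all genes. Of their 322 peaks, 37 (11.5%) and 36 (11.2%) were so called, against 8.84% and 12.9% of all peaks. The count of 4 fell without S9 or S10. Progenitor and fibroblast genes had 2 of 16 on each side, near the shares of all genes, and these calls too depended on the library left out. Of 8 tested endothelial and muscle genes, the endothelial receptor genes Kdr (49 and 47 against 35.4 and 37.5 CPM) and Flt1 were higher with forskolin and Tek with rosiglitazone. Over all genes the shares were 8.66% and 8.52%, and fewer genes of this list were called without S9 or S10. Among 19 clock genes, 2 (Npas2 and Nfil3) were higher with forskolin and 1 (Cry2) with rosiglitazone, near the 8.66% and 8.52% of all genes. More were higher with forskolin without S7, and more with rosiglitazone without S8. Of the MiT/TFE and lysosome list 1 of 14 was called, Trpm1, higher with forskolin (0.27), near the 8.66% of all genes. That call was lost when any 1 of the 4 libraries was left out.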

How the data were processed

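The table deposited by the authors held raw counts for 122984 peaks with 1 column per library. The submitters' processing notes list Bowtie2, deepTools, fastp, featureCounts, MACS2, Picard and SAMtools, without versions, beside the builds GRCm38 and mm10. The sources used here do not give how peaks were merged, whether reads or fragments were counted, or whether reads were shifted for the transposase. Column names give each library's group and a running number, which is used here as its name.

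Tests on these counts used edgeR 4.0.16 under R 4.3.3 (quasi-likelihood F test, robust, TMM, default filter by expression) in 1 fit over the 10 libraries, so the spread is pooled over 5 groups; the median biological coefficient of variation was 0.163. S7 and S8 differed more (chi-square per degree of freedom 3.37) than the pairs of the other groups (2.22 to 2.37). The pooled spread may therefore be too small for them, and the p-values too low. A feature was called where its p, adjusted by Benjamini-Hochberg over the whole table, was below 0.05. Standard errors come from the F statistic, and levels are CPM after TMM. In simulated data for this comparison, run on 20000 peaks, 39.4% of 94 peaks changed 2-fold and 95.3% of 106 changed 4-fold were recovered. False calls among the unchanged peaks numbered 5. The changed peaks were a far smaller share than the 21.7% called here and were drawn from better covered peaks. The simulation therefore does not measure how many differences were found in these data.

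Peaks were assigned by RefSeq gene bounds of GRCm38.p6 to the gene holding them, or else to the nearest end of a protein-coding gene within 50 kb, and counts were summed per gene with the peak table's library sizes. Promoter windows came from RefSeq, which gave 21263. The planned distances to start sites were replaced by gene ends, because the gene table has no strand. Motifs were searched only in promoter windows.

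The comparison, gene lists and named genes were chosen with earlier results of these data known. Named were the 8 peaks and 8 genes with the largest differences in each direction among called, well-covered features whose libraries did not overlap, the 5 genes per direction with the most called peaks, the 2 most significant members of each list, and a fixed set (Ucp1, Ppargc1a, Cidea, Dio2, Pparg, Adipoq, Fabp4, Lep, Adrb3, Pde4b, Pde4d, Pdk4, Mitf and Cd36); Gm, Riken and olfactory receptor models were skipped. Other list members are named by their values, and some named genes are not reported here. DESeq2 1.42.0, other scalings, filters, assignments and left-out libraries were tried as alternatives. Intervals on shares are 95% Wilson intervals and cover counting error only.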

Additional observations from a re-analysis of the deposited data

How the results depend on the processing

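No paired analysis was possible because the column names carry a running number that does not tie a library to a labelled replicate. With DESeq2 16549 peaks were called, and 15587 at an adjusted p below 0.01; leaving out S7, S8, S9 or S10 gave 16212 to 21542. The share of called peaks higher with forskolin was 56.7% with trended offsets, 62.7% with DESeq2, 56.6% with only the 4 libraries in the fit, 63.7% at an adjusted p below 0.01, and 59.1% to 67.6% with 1 library left out. Genes called numbered 1634 with only the 4 libraries and 629 with gene-end peaks only, and 1406 to 3978 with 1 library left out. The forskolin share of called genes was 46.6% with library size alone, 60.7% with trended offsets, 52.6% with DESeq2, 56.7% with only the 4 libraries, 45.3% with gene-end peaks only, and 37.5% to 65.5% with 1 library left out.

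The gene-end share of peaks higher with forskolin was 8.68% with a 2 kb distance, 6.40% with trended offsets, 4.59% with DESeq2 and 4.29% to 10.9% with 1 library left out. That of peaks higher with rosiglitazone was 13.3% with a 2 kb distance, 11.7% with library size alone, 10.8% with trended offsets, 7.54% with only the 4 libraries and 7.31% to 19.9% with 1 library left out. Of peaks higher with forskolin, 51.4% rose after 1 day with RLE size factors, 62.3% with library size alone, 47.3% with trended offsets, 47.5% with DESeq2, 54.6% with only the 4 libraries and 55.1% to 59.3% with 1 library left out. Of peaks higher with rosiglitazone, 29.5% fell with RLE size factors, 18.2% with library size alone, 28.4% with trended offsets, 26.1% with only the 4 libraries and 30.6% to 37.9% with 1 library left out. PPAR targets higher with rosiglitazone numbered 13 with gene-end peaks only, and 1 was higher with forskolin with trended offsets, with peaks within 10 kb and with gene-end peaks only. The AP-1 share of windows with peaks higher with forskolin was 13.1% with trended offsets and 29.1% with DESeq2. The list counts and AP-1 shares under alternatives were added after seeing the data. Causes were not tested.

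All 27 called named peaks stayed called in the same direction under each alternative run. Of the 56 called named genes, 28 did, and 6 changed sign with gene-end peaks only, none of them called there: Foxred2 (−0.51), Foxp1 (−0.01), Ksr1 (−0.06), Dcn (−1.30), Cdk14 (0.13) and Col15a1 (−0.00). RLE size factors, library size alone and trended offsets kept all 56 calls, and DESeq2 lost 2 (Cebpb and Trpm1); the gene-end setting rests on fewer peaks. At the lowest levels, 87 peaks called higher with forskolin had no count with rosiglitazone, with a median of 19 counts over both forskolin libraries, and 13 called the other way had none with forskolin, so their fold changes depend on the prior count.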

Other observations

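Peaks of very high level were looked at apart. Of 18 peaks with a mean above 8 log2 CPM, 9 were called by edgeR, each of them higher with forskolin. The widest of the 9, a block of 38204 bp near the start of the chromosome 9 assembly (3000010 to 3038213), stood at 8190 and 13400 CPM with forskolin, 5380 and 5740 CPM with rosiglitazone, and 11200 and 9030 CPM in vehicle. A pair on chromosome 17 (39843034 to 39847248 and 39847455 to 39848760) gave 4300 and 6400 CPM against 3030 and 3470 CPM, and 1220 and 1820 CPM against 895 and 997 CPM. In all 9, S8 was the higher of the 2 forskolin libraries; in the block on chromosome 9 vehicle lay between the forskolin libraries. The sources used here do not give how reads with several matches were counted. The peak with the highest level of all (chromosome 1, 24611596 to 24616141) did not differ detectably, at 17300 and 20600 against 19100 and 19300 CPM.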
